A study of Danio rerio with 5 samples.

Results

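The array of Bdh2 morphant zebrafish embryos that expressed ectopic Bdh2 was set against the 2 arrays of Bdh2 morphants. These are 3 of the 5 arrays in the study, and they were chosen by their titles. The other 2 arrays are control morphants, whose values are given beside the rest. Each transcript was described by where the single array lay: above both Bdh2 morphant arrays, below both, or between them. With 1 array against 2, the comparison is a description first, and a pooled test is given only as a second view.

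The first group, with 1 array, is labelled as Bdh2 morphants expressing ectopic Bdh2. Per the treatment protocol these embryos received morpholino at 130 µmol/L together with a capped synthetic mRNA of mouse bdh2 at 50 µg/ml. The mRNA was made from a cDNA in the pCS2+MT vector. The second group, with 2 arrays, consisted of Bdh2 morphants without that mRNA, and the third, with 2 arrays, of control morphants. All fish were wild type, all injections were made into embryos at the first cleavage stages, and all RNA was taken at 72 h after fertilization (hpf). The labels do not describe the control morpholino or whether embryos without the mRNA received another one. The number of embryos pooled and the clutch of each sample are not given either, and p-values therefore measure only the spread between these samples.

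Bdh2, a short-chain dehydrogenase of the cytosol, has a proposed role in making the siderophore of mammals, an iron-binding small molecule. A morpholino is a synthetic antisense oligomer that blocks translation or splicing of its target RNA. Adding an mRNA that lacks the target sequence is the usual way to ask whether an effect of a morpholino is due to its target. At this stage the zebrafish larva has contracting trunk muscle, a layered retina, a liver that secretes plasma proteins, and a yolk whose lipids are exported as lipoproteins.

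Levels are given as linear intensities of probe sets, and differences on the scale log2(intensity + 16). Median intensity was 174 with ectopic Bdh2, 157 and 142 in Bdh2 morphant replicates 1 and 2, and 161 and 162 in controls 1 and 2. The bright end went the other way. The 99th percentile was 10772 with ectopic Bdh2, 15685 and 17532 in Bdh2 morphants 1 and 2, and 16690 and 15334 in controls 1 and 2. The part of this in the low values of bright genes below was not tested. The acta1 control, whose 3'/5' signal ratio is higher in degraded RNA, stood at 6.63 with ectopic Bdh2, 11.8 and 3.49 in the Bdh2 morphants, and 4.28 and 2.60 in the controls. Replicates 1 and 2 stood apart. Over tested probe sets, Bdh2 morphant 1 correlated with control 1 at 0.964, and Bdh2 morphant 2 with control 2 at 0.952. Within groups the correlation was 0.914 for the Bdh2 morphants and 0.932 for the controls. The single array stood at 0.909 and 0.835 with Bdh2 morphants 1 and 2, and 0.911 and 0.876 with controls 1 and 2. Among 115 Affymetrix control probe sets, the 1 that split most by replicate number was picked. It read 184 with ectopic Bdh2, 139 and 34877 in Bdh2 morphants 1 and 2, and 129 and 25644 in controls 1 and 2. The single array carries number 1 in its title and lay near replicate 1 in this probe set. The BioB spike-in control went the other way, at 240 with ectopic Bdh2, 376 and 197 in Bdh2 morphants 1 and 2, and 392 and 216 in controls 1 and 2. The part of this split in the results was not tested, so medians of the differences from Bdh2 morphants 1 and 2 are given in brackets beside the list medians below.

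Transcripts of the array with ectopic Bdh2 lay on both sides of the Bdh2 morphant range, and the largest gaps were more often below it. Of 9301 tested probe sets, 3976 (42.7%) lay above both and 2779 (29.9%) below both, while 2546 lay between them. The tested probe sets were those with a mean above the 40th percentile, an intensity of 97.6, and the other 6201 were not tested. That mean includes the single array, so a probe set high there passes more easily and one low there less easily. The counts above both arrays include probe sets that passed in this way. A gap of at least 2-fold to the nearer Bdh2 morphant array was found above for 440 probe sets (4.73%) and below for 328 (3.53%). After each array had been centred on its median these counts were 287 above and 432 below. A gap of at least 4-fold was found above for 35 probe sets (0.376%) and below for 93 (1.00%).

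In the pooled test, limma fitted to all 5 arrays with Benjamini-Hochberg adjustment, 2 probe sets rose (0.0215%) and 47 fell (0.505%) at an adjusted p under 0.05. All 49 lay outside both Bdh2 morphant arrays by at least 2-fold. At an unadjusted p under 0.05 in the same limma test, 629 probe sets were higher and 517 lower. Without the intensity trend in the fit there were 0 calls at the adjusted threshold. The test assumes that the single array varies like the replicated groups. Without Bdh2 morphant replicate 2 it made 0 calls, with 703 probe sets at an unadjusted p under 0.05 against 1146 with all arrays. Without Bdh2 morphant replicate 1 it called 6 probe sets higher and 52 lower, and without a control the counts were 65 or 69 higher and 151 or 153 lower.

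The gene counts that follow use 1 probe set per gene, the brightest, for 6327 genes. Of these, 2530 (40%) lay above both Bdh2 morphant arrays and 2086 (33.0%) below both. At 2-fold or more the counts were 254 above (4.01%) and 242 below (3.82%), and at 4-fold or more 20 above (0.316%) and 74 below (1.17%). In the pooled test 2 genes rose (0.0316%) and 39 fell (0.616%). The median difference of all tested genes was 0.08, and it was 0.02 from Bdh2 morphant 1 and 0.12 from Bdh2 morphant 2. Over probe sets the median was 0.12 as deposited, -0.08 after centring and 0.01 after quantile normalisation, and list medians should be read against these. Just past the 2-fold limit stood sdc2, at 139 with ectopic Bdh2 against 307 and 294 in the Bdh2 morphants. Just short of it stood g3bp2a, at 3263 with ectopic Bdh2 against 1624 and 646 in the Bdh2 morphants.

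**Figure D1:**
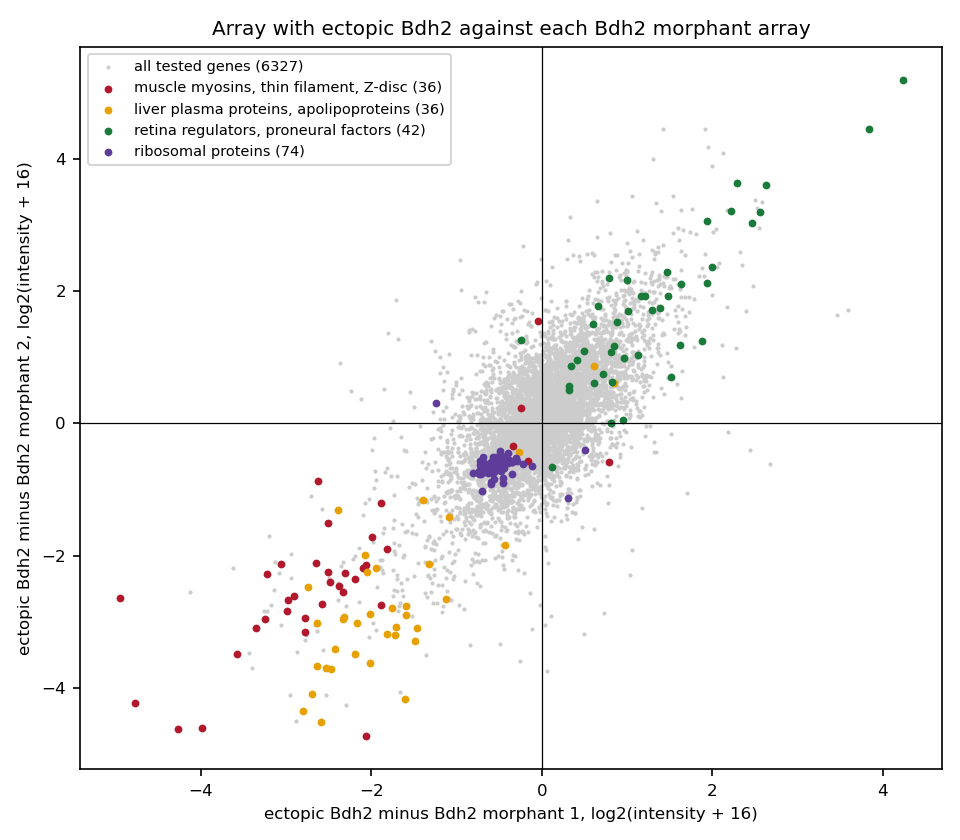
Each point is 1 of 6327 tested genes: the x axis is the log2(intensity + 16) difference of the array with ectopic Bdh2 from Bdh2 morphant 1, and the y axis its difference from Bdh2 morphant 2. Genes of muscle and liver lie mostly in the lower left, below both arrays, and genes of retina and neuronal commitment mostly in the upper right. Ribosomal protein genes form a tight group, mostly just below 0 on both axes.

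The bdh2 probe set, the zebrafish gene that the morpholino targets, read 142 with ectopic Bdh2, against 235 and 643 in the Bdh2 morphants and 344 and 335 in the controls. The single array was thus the lowest of all 5, and the Bdh2 morphant arrays lay on both sides of the controls. The difference from the Bdh2 morphants was -1.36 (SE 0.61, n = 1 and 2; limma adjusted p = 0.428). A zebrafish probe set need not detect the injected mouse mRNA, and the labels do not say how the morpholino acts, so this value checks neither label.

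The genes furthest above both Bdh2 morphant arrays were mainly transcription factors of the retina and brain. The highest was crx, a homeobox factor of photoreceptor and bipolar cells, which read 1089 with ectopic Bdh2, against 42.6 and 14.1 in the Bdh2 morphants and 1081 and 487 in the controls. Its log2 difference was 4.72 (SE 0.63, n = 1 and 2; limma adjusted p = 0.0359). Both Bdh2 morphant values lie under the filter intensity, so the size depends on the added constant: the difference was 3.66 with 64 and 5.41 with 1. Next was vsx1, a homeobox factor of retinal bipolar cells, at 1778 with ectopic Bdh2, against 110 and 65.7 in the Bdh2 morphants and 1197 and 644 in the controls. Its difference was 4.15 (SE 0.53, n = 1 and 2; limma adjusted p = 0.0299). With the constant 64 it was 3.62, next to the 3.66 of crx. These were the 2 genes that rose, and in both the single array lay at or above the higher control. Without Bdh2 morphant replicate 2, limma gave adjusted p = 0.123 for crx and 0.111 for vsx1.

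The next genes did not pass the test but lay more than 4-fold above both Bdh2 morphant arrays. A forkhead factor of the forebrain and retina, foxg1b, read 1492 with ectopic Bdh2, against 227 and 107 in the Bdh2 morphants and 865 and 438 in the controls. For barhl2, a homeobox factor of retinal and brain neurons, the single array read 1233, against 192 and 107 in the Bdh2 morphants and 603 and 230 in the controls. The proneural factor atoh7, which retinal ganglion cells need, stood at 694 with ectopic Bdh2, against 104 and 61.1 in the Bdh2 morphants and 296 and 92.5 in the controls. In these 3 genes the single array exceeded all 4 other arrays, and the second control lay close to the higher Bdh2 morphant in barhl2 and atoh7.

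Further neural factors had the same order of arrays. The hypothalamic homeobox factor otpb read 3092 with ectopic Bdh2, against 523 and 310 in the Bdh2 morphants and 1254 and 565 in the controls. For neurod1, which drives neuronal and endocrine differentiation, the values were 1652 with ectopic Bdh2, 286 and 188 in the Bdh2 morphants, and 1409 and 583 in the controls. The LIM homeobox genes lhx9 and lhx1a differed by 2.97 and 2.71 from the Bdh2 morphants, and tfap2b, an AP-2 transcription factor, by 2.46. A Notch ligand gene, dlc, read 1127 with ectopic Bdh2, against 208 and 201 in the Bdh2 morphants and 213 and 181 in the controls. Here the 4 other arrays nearly coincide and the single array alone stands apart, but this probe set is one that can match other transcripts.

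Of the other genes among the 14 furthest above, ndrg1b is known to respond to low oxygen. It read 438 with ectopic Bdh2, against 61.8 and 42.7 in the Bdh2 morphants and 210 and 344 in the controls. The kinase gene sik1 read 1310 with ectopic Bdh2, against 277 and 126 in the Bdh2 morphants and 369 and 321 in the controls. A gene known by its clone name, si:ch211-255g12.6, read 497 with ectopic Bdh2, against 74.3 and 33.1 in the Bdh2 morphants and 649 and 505 in the controls. It is the 1 gene of the 14 in which the single array lay below both controls.

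**Figure D2:**
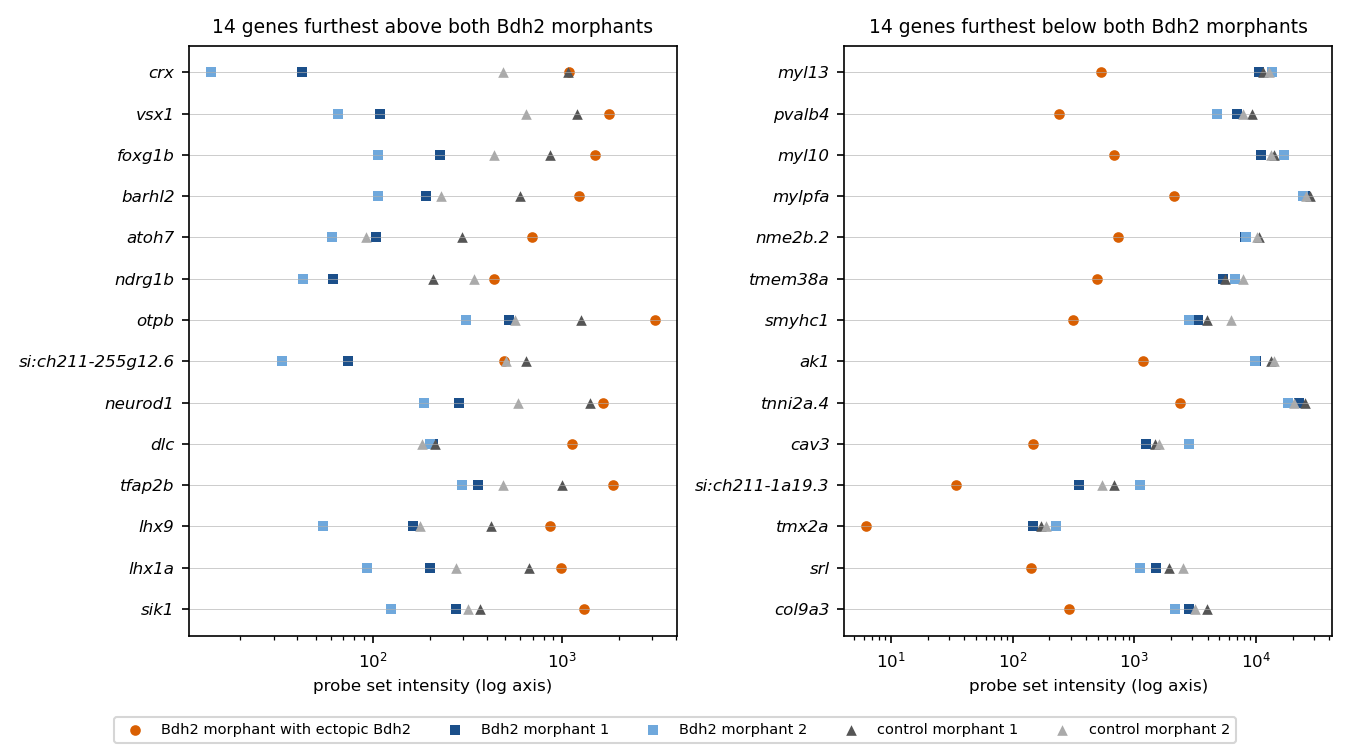
Intensity on a log axis of the 14 genes furthest above (left) and the 14 furthest below (right) both Bdh2 morphant arrays, 1 row per gene and 1 point per array. On the left the controls lie mostly between the array with ectopic Bdh2 and the Bdh2 morphants, as with crx at 1089 against 42.6 and 14.1. On the right the single array lies far below all 4 other arrays, as with mylpfa at 2132 against 25478 and 24193. The spread of those 4 arrays differs by gene, and si:ch211-1a19.3 read 353 and 1111 in the Bdh2 morphants.

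The genes furthest below both Bdh2 morphant arrays were mainly those of the contractile apparatus of skeletal muscle. The myosin light chain gene myl13 read 530 with ectopic Bdh2, against 10533 and 13420 in the Bdh2 morphants and 11451 and 12682 in the controls. Its difference was -4.45 (SE 0.30, n = 1 and 2; limma adjusted p = 0.00827). The parvalbumin gene pvalb4, which codes for a calcium buffer of fast muscle, read 240 with ectopic Bdh2, against 6955 and 4759 in the Bdh2 morphants and 9321 and 7776 in the controls. It fell by 4.50 on the log2 scale (SE 0.37; limma adjusted p = 0.0092). In both genes the 4 other arrays lay far above the single array. They ranged from 10533 to 13420 for myl13 and from 4759 to 9321 for pvalb4.

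Other light and heavy chains showed the same separation. The light chain gene myl10 read 682 with ectopic Bdh2, against 11000 and 16974 in the Bdh2 morphants and 14113 and 13310 in the controls. For mylpfa, the regulatory light chain of fast muscle, the values were 2132 with ectopic Bdh2, 25478 and 24193 in the Bdh2 morphants, and 27696 and 25700 in the controls. The slow myosin heavy chain gene smyhc1 read 313 with ectopic Bdh2, against 3355 and 2796 in the Bdh2 morphants and 3975 and 6231 in the controls. All 3 fell (limma adjusted p = 0.0092, 0.00827 and 0.0299), so fast and slow fibre genes were both among them.

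Genes that serve the muscle's calcium store and energy supply were also in this group. A cation channel gene of the sarcoplasmic reticulum, tmem38a, read 497 with ectopic Bdh2, against 5393 and 6667 in the Bdh2 morphants and 5597 and 7826 in the controls. For ak1, an adenylate kinase, the values were 1184 with ectopic Bdh2, 9952 and 9875 in the Bdh2 morphants, and 13162 and 14152 in the controls. The nucleoside diphosphate kinase gene nme2b.2 differed by -3.45 and srl, which codes for sarcalumenin of the calcium store, by -3.05, and both fell. The caveolin of muscle, cav3, read 147 with ectopic Bdh2, against 1252 and 2802 in the Bdh2 morphants and 1474 and 1582 in the controls, and did not pass (limma adjusted p = 0.0532).

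A few of the lowest genes are not muscle genes. The cartilage collagen gene col9a3 fell by 3.03 (SE 0.39; limma adjusted p = 0.0299), with 289 with ectopic Bdh2, against 2836 and 2153 in the Bdh2 morphants and 3970 and 3134 in the controls. A thioredoxin-related gene, tmx2a, read 6.29 with ectopic Bdh2, against 147 and 228 in the Bdh2 morphants and 172 and 186 in the controls. That single value lies far under the filter intensity, so its size depends on the added constant: the difference was -3.16 with 16 and -1.82 with 64. The clone-named gene si:ch211-1a19.3 read 34.0 with ectopic Bdh2, against 353 and 1111 in the Bdh2 morphants, and did not pass.

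Of the 74 genes at least 4-fold below both Bdh2 morphant arrays, 33 stood in the muscle lists and 20 in the liver and apolipoprotein lists. Of the 20 genes at least 4-fold above both, 9 stood in the lists of eye and nervous system. Of all 6327 tested genes, the muscle lists held 14, 22, 15, 8 and 7, and the liver lists 21, 15 and 15. The eye lists held 19, 12 and 6, and those of the nervous system 26, 36, 45 and 41. Some genes stood in more than 1 list. The lists were chosen with earlier results of these data known, and these shares were not tested. Of the 41 genes past the test, 26 stood in the muscle lists and 8 in the liver lists. The 3 genes past the test that stood in no list were tmx2a, tmem38a and nme2b.2. In RNA of embryos, fewer cells of a type and less RNA per cell cannot be told apart.

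**Figure D3:**
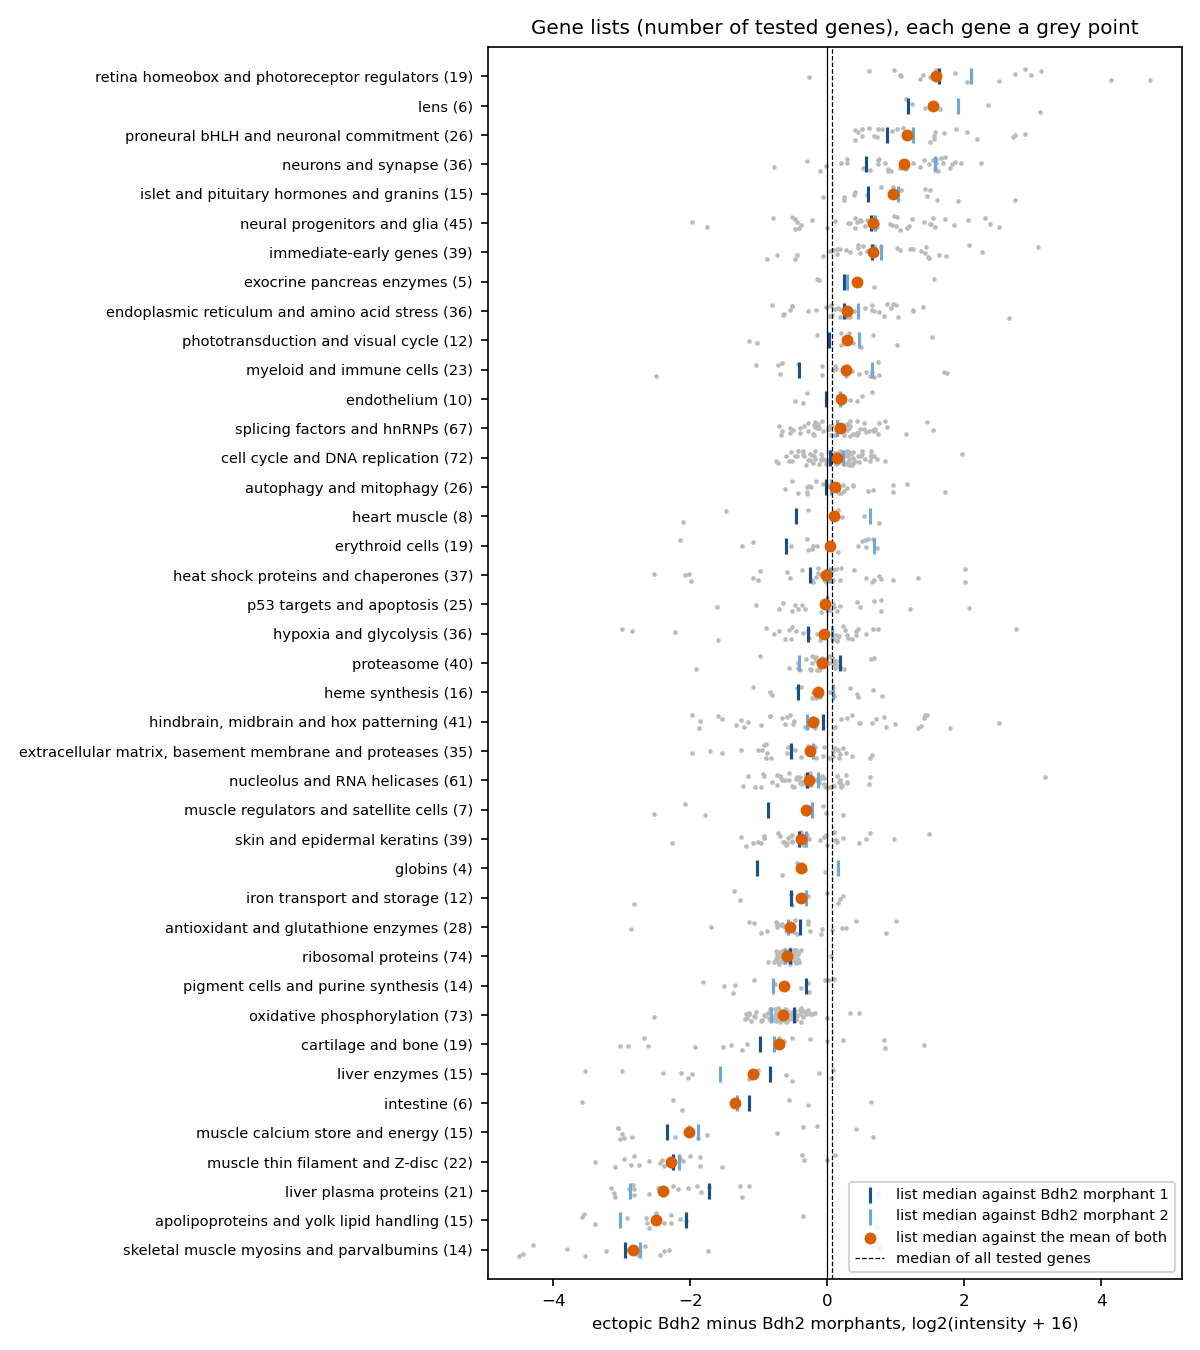
Difference of the array with ectopic Bdh2 from the mean of both Bdh2 morphant arrays, on the log2(intensity + 16) scale, for each tested gene (grey) of 41 lists, with list medians against the mean (orange) and against Bdh2 morphants 1 and 2 (dark and light blue ticks). Retina, lens and neuronal lists have medians above 1, and the 3 lists of skeletal muscle structure and energy and those of liver plasma proteins and apolipoproteins have medians at or below -2.01; the dashed line marks the median of all genes.

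Genes for myosins and parvalbumins had the lowest median of the 41 lists. Of 14 tested genes for myosins and parvalbumins, 13 lay below both Bdh2 morphant arrays, 12 by at least 2-fold, and 10 fell past the test. The list median was -2.84, and it was -2.95 from Bdh2 morphant 1 and -2.74 from Bdh2 morphant 2. The 1 gene between the arrays was myh7, a myosin of the cardiac ventricle, at 714 with ectopic Bdh2, against 737 and 233 in the Bdh2 morphants and 761 and 664 in the controls. The parvalbumin gene pvalb3 read 278 with ectopic Bdh2, against 9094 and 1813 in the Bdh2 morphants and 2632 and 1552 in the controls. Its 2 Bdh2 morphant arrays differ widely, and it did not pass (limma adjusted p = 0.211).

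Genes of the thin filament and Z-disc, which hold actin in register and regulate contraction, lay low too. Of 22 tested, 20 lay below both Bdh2 morphant arrays, 18 by at least 2-fold, and 8 fell, with a median of -2.28 (-2.25 and -2.16 from Bdh2 morphants 1 and 2). The fast troponin I gene tnni2a.4 read 2363 with ectopic Bdh2, against 22567 and 18478 in the Bdh2 morphants and 25081 and 20349 in the controls. Troponin T and troponin C of fast muscle, coded by tnnt3a and tnnc2.2, fell too, with differences of -2.97 and -2.86. A second troponin I gene, tnni2b.1, read 184 with ectopic Bdh2, against 817 and 5307 in the Bdh2 morphants and 980 and 4125 in the controls. This gene splits by replicate number in both groups and did not pass. The 2 genes between the arrays, tpm4a and capzb, differed by less than 0.12 and were named after their values were seen.

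Of 15 genes for the muscle calcium store and energy supply, 10 lay below both Bdh2 morphant arrays, all by at least 2-fold, and 8 fell, with a median of -2.01 (-2.33 and -1.88). The muscle phosphoglycerate mutase gene pgam2 read 434 with ectopic Bdh2, against 3068 and 4327 in the Bdh2 morphants and 5123 and 5585 in the controls. The glycolytic gene gapdh read 2196 with ectopic Bdh2, against 15072 and 20400 in the Bdh2 morphants and 20394 and 17066 in the controls. On this probe set the gene, often used as a loading standard, fell with a difference of -2.99. The GAPDH control probe sets of the array did not share this fall. One read 6251 with ectopic Bdh2, against 7637 and 3608 in the Bdh2 morphants, and lay between them. Another read 3136 with ectopic Bdh2, against 2712 and 2104 in the Bdh2 morphants, and lay above both. The 1 gene above both Bdh2 morphant arrays was mb, myoglobin, at 0.67, which was named after its values were seen. Its gap to the nearer array was only 0.069. It read 295 with ectopic Bdh2, against 280 and 112 in the Bdh2 morphants and 648 and 282 in the controls.

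The list of muscle regulators had a smaller median difference from the Bdh2 morphants. Of 13 such genes on the array, 7 were tested. Of 7 tested regulators and satellite cell genes, 4 lay below both Bdh2 morphant arrays and 3 between them, with a median of -0.31 (-0.87 and -0.22). Against the controls the median was -1.02, with 5 of the 7 below both. The master regulator gene myod1 read 71.7 with ectopic Bdh2, against 144 and 58.4 in the Bdh2 morphants and 166 and 140 in the controls. Its values on the single array and in Bdh2 morphant 2 lie under the filter intensity. The myosin chaperone genes hsp90aa1.1 and unc45b had the largest differences of this list, -2.53 and -2.07. For mef2ca, a factor of muscle differentiation, the difference was -1.78 and none of these genes passed the test.

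Heart genes lay mostly between the Bdh2 morphant arrays. Of 8 tested, 2 lay below both Bdh2 morphant arrays and 6 between them, and the median was 0.11 (-0.46 and 0.62 from Bdh2 morphants 1 and 2). The Bdh2 morphant arrays themselves differed in this list, with a median of -1.05 for replicate 2 minus replicate 1. The gene that fell was actc1a, an actin expressed in heart and skeletal muscle, at 4178 with ectopic Bdh2, against 17524 and 18461 in the Bdh2 morphants and 23955 and 19703 in the controls. The heart field factor hand2 read 1207 with ectopic Bdh2, against 1302 and 528 in the Bdh2 morphants and 1186 and 846 in the controls. The heart list median was -0.10 after centring and -0.05 after quantile normalisation, so its sign depends on the scaling.

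Plasma proteins secreted by the liver formed the second large group of low values. Of 21 tested, 20 lay below both Bdh2 morphant arrays, 19 by at least 2-fold, with a median of -2.39 (-1.73 and -2.88 from Bdh2 morphants 1 and 2). One gene passed the test, plg, which codes for plasminogen and was named after its values were seen. It read 74.7 with ectopic Bdh2, against 550 and 717 in the Bdh2 morphants and 506 and 515 in the controls. The retinol carrier gene rbp4 read 1362 with ectopic Bdh2, against 7971 and 17910 in the Bdh2 morphants and 9287 and 13315 in the controls. For fetub, a fetuin, the values were 169 with ectopic Bdh2, 1140 and 2337 in the Bdh2 morphants, and 1683 and 1646 in the controls. In these genes Bdh2 morphant 2 was above Bdh2 morphant 1, and both lay far above the single array. The 1 gene above both arrays was igfbp1a, at 0.74.

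Among liver enzymes, 13 of 15 lay below both Bdh2 morphant arrays, 6 by at least 2-fold, and 3 fell, with a median of -1.08 (-0.84 and -1.56). Both enzymes of creatine synthesis were among those that fell. The gamt probe set read 1086 with ectopic Bdh2, against 6524 and 11876 in the Bdh2 morphants and 7702 and 8360 in the controls. The gatm probe set read 1287 with ectopic Bdh2, against 6836 and 6914 in the Bdh2 morphants and 6530 and 6328 in the controls. For fbp1b, an enzyme of gluconeogenesis, the values were 147 with ectopic Bdh2, 966 and 3646 in the Bdh2 morphants, and 1003 and 1360 in the controls, and it did not pass. The methionine cycle gene mat1a differed by -2.13.

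Genes that carry lipids from yolk and gut lay as low. Of 15 tested, 14 lay below both Bdh2 morphant arrays, 13 by at least 2-fold, and 4 fell, with a median of -2.50 (-2.05 and -3.02 from Bdh2 morphants 1 and 2). The intestinal fatty acid carrier gene fabp2 read 332 with ectopic Bdh2, against 2410 and 7112 in the Bdh2 morphants and 2237 and 3037 in the controls. For apoa4b.2, an apolipoprotein, the values were 813 with ectopic Bdh2, 4971 and 19052 in the Bdh2 morphants, and 8503 and 8396 in the controls. The fatty acid carrier fabp1b.1 and the apolipoprotein apoa4b.1 differed by -3.39 and -2.92. The 1 gene above both arrays was fabp7a, a carrier of brain glia, at 0.73. The 4 genes that fell, apoa1a, apoc1, apobb.1 and apoa2, and fabp7a were named after their values were seen.

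In the gut list, with 17 genes on the array, 5 of 6 tested genes lay below both Bdh2 morphant arrays, with a median of -1.34 (-1.14 and -1.32). The retinol carrier of the gut, rbp2a, read 112 with ectopic Bdh2, against 640 and 556 in the Bdh2 morphants and 662 and 2052 in the controls, and the cadherin gene cdh17 differed by -2.12. The endocrine list lay on the other side. Of 15 tested genes in the list of islet and pituitary hormones and granins, 12 lay above both Bdh2 morphant arrays, 5 by at least 2-fold, and 0 below both. The median was 0.96 (0.59 and 1.04 from Bdh2 morphants 1 and 2). The 5 were the hormone genes ins and gcga and the transcription factor genes neurod1, pax6b and nkx2.2a. Both neurod1 and pax6b also count in the list of retina regulators, and pax6b and nkx2.2a were named after their values were seen. The insulin gene ins read 1619 with ectopic Bdh2, against 639 and 275 in the Bdh2 morphants and 518 and 403 in the controls. The glucagon gene gcga read 337 with ectopic Bdh2, against 102 and 98.5 in the Bdh2 morphants and 95.5 and 80.3 in the controls. This gene passed the filter only through its high value on the single array. Both hormones lay above all 4 other arrays, and no gene of either list passed the test.

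The exocrine pancreas list has 20 genes on the array but held only 5 tested genes. Of these, ptf1a, a factor of pancreas and hindbrain neurons, differed most. It read 639 with ectopic Bdh2, against 161 and 261 in the Bdh2 morphants and 239 and 187 in the controls. The carboxypeptidase gene cpa5 read 260 with ectopic Bdh2, against 257 and 92.6 in the Bdh2 morphants, and lay next to Bdh2 morphant 1. Of the 5 genes, ptf1a, cpa5 and sycn.2 lay above both Bdh2 morphant arrays, prss1 below both and ela2l between them, and all but ptf1a had a gap under 2-fold. The prss1 gene was named after its values were seen.

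Regulators of the retina were the group furthest above the Bdh2 morphants. Of 19 tested genes, 18 lay above both Bdh2 morphant arrays, 15 by at least 2-fold and 6 by at least 4-fold, and 2 rose. The median was 1.59 (1.63 and 2.103 from Bdh2 morphants 1 and 2), and the median difference from the controls was 1.08. Among them was otx2b, a homeobox factor of forebrain, midbrain and retina, at 3449 with ectopic Bdh2, against 891 and 397 in the Bdh2 morphants and 1894 and 717 in the controls. The eye field genes six3a, six3b, six6a, six6b, pax6a, pax6b, rx2 and rx3, named after their values were seen, had differences between 0.98 and 1.87. Of these, six6a passed the filter only through its high value on the single array. The 1 gene between the arrays was mitfa, a factor of pigment cells, at -0.27.

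The tested genes of phototransduction and the visual cycle did not show a shift of that size. This list has 36 genes on the array, and most of them were under the filter and not evaluated. Of its 12 tested genes, 6 lay above both Bdh2 morphant arrays, 2 below and 4 between. Its median was 0.29 (0.03 and 0.47 from Bdh2 morphants 1 and 2). The list is not of light detection alone, as ckmt2a also stands in the muscle energy list and rbp4l among liver plasma proteins. Of the genes above both, gnb1a, gnb1b and cxxc1b had gaps of 0.002, 0.19 and 0.06. These genes were named after their values were seen. The retinal-binding gene rlbp1a read 159 with ectopic Bdh2, against 67.2 and 28.5 in the Bdh2 morphants and 173 and 216 in the controls. It passed the filter only because the mean includes the single array. The opsin-related gene rgrb read 363 with ectopic Bdh2, against 617 and 929 in the Bdh2 morphants and 733 and 749 in the controls. The rod and cone transducin genes gnat1 and gnat2 were at or below 105 and 45.0 on all 5 arrays.

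The lens list has 13 genes on the array, of which 6 were tested. All 6 lay above both Bdh2 morphant arrays, 5 by at least 2-fold, with a median of 1.54 (1.17 and 1.91 from Bdh2 morphants 1 and 2). The alpha crystallin gene cryaa read 577 with ectopic Bdh2, against 119 and 18.8 in the Bdh2 morphants and 275 and 84.9 in the controls. It passed the filter only through its high value on the single array. For bfsp2, a filament protein of lens fibres, the values were 701 with ectopic Bdh2, 267 and 54.8 in the Bdh2 morphants, and 847 and 114 in the controls. The crystallin gene crybb1 read 10772 with ectopic Bdh2, against 5245 and 3033 in the Bdh2 morphants and 11349 and 1799 in the controls. In bfsp2 and crybb1 the controls lie further apart than the single array and Bdh2 morphant 1, and no lens gene passed the test. Against the controls, 2 of the 6 lens genes lay above both and 0 below both.

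Neuronal genes were higher across the list rather than in a few members. Of 26 tested proneural and commitment genes, 25 lay above both Bdh2 morphant arrays, 10 by at least 2-fold, with a median of 1.16 (0.87 and 1.25 from Bdh2 morphants 1 and 2). The oligodendrocyte and motor neuron factor olig2 read 1631 with ectopic Bdh2, against 397 and 302 in the Bdh2 morphants and 656 and 363 in the controls. The 1 gene between the arrays was tal1, a factor of blood and spinal interneurons, at 0.51. Of 36 tested genes of neurons and synapse, 32 lay above both, 13 by at least 2-fold, with a median of 1.12 (0.57 and 1.57 from Bdh2 morphants 1 and 2).

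Genes of inhibitory neurons led the synaptic list. The vesicular GABA transporter gene slc32a1 read 888 with ectopic Bdh2, against 223 and 136 in the Bdh2 morphants and 420 and 376 in the controls. The enzyme genes that make GABA, gad2 and gad1b, differed by 1.95 and 1.87. The neuronal RNA-binding gene elavl4 read 961 with ectopic Bdh2, against 459 and 144 in the Bdh2 morphants and 682 and 693 in the controls. The 2 genes below both arrays were slc18a3a, the vesicular acetylcholine transporter (-0.78), and cplx2a (-0.30), both named after their values were seen. No gene of either list passed the test.

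Progenitor and glial genes were more mixed. Of 45 tested, 33 lay above both Bdh2 morphant arrays and 8 below, with a median of 0.67 (0.64 and 0.70). The receptor gene notch1a read 546 with ectopic Bdh2, against 149 and 43.5 in the Bdh2 morphants and 283 and 171 in the controls, on a probe set that can match other transcripts. The Notch target hey1 read 500 with ectopic Bdh2, against 81.9 and 143 in the Bdh2 morphants and 289 and 241 in the controls. The glial glutamate transporter gene slc1a2b read 6424 with ectopic Bdh2, against 2427 and 678 in the Bdh2 morphants and 3711 and 3384 in the controls. Another glutamate transporter of glia, slc1a3a, and the glutamine synthetase gene glula lay on the other side at -1.76 and -1.97, and were named after their values were seen.

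The hox genes, whose paralog number follows their place along the body axis from head to tail, did not behave as 1 group. Of 9 tested genes of paralog groups 1 to 4, 4 lay above both Bdh2 morphant arrays and 4 below, with a median of 0.11 (0.097 and -0.17). Of 9 genes of groups 5 to 8, 7 lay below both and 0 above, with a median of -0.83 (-0.83 and -0.82). Of 10 genes of groups 9 to 13, 9 lay below both and 0 above, with a median of -1.35 (-0.89 and -1.86 from Bdh2 morphants 1 and 2), and all 10 lay below both controls. On the single array 8 of these 10 genes read under the filter intensity, so the size of the median depends on the added constant, at -0.84 with 64 and -1.70 with 1. The anterior gene hoxb2a read 867 with ectopic Bdh2, against 538 and 703 in the Bdh2 morphants and 420 and 704 in the controls. The posterior gene hoxb9a read 58.9 with ectopic Bdh2, against 258 and 299 in the Bdh2 morphants and 501 and 502 in the controls. No hox gene passed the test, and hoxb2a was named after its values were seen.

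**Figure D4:**
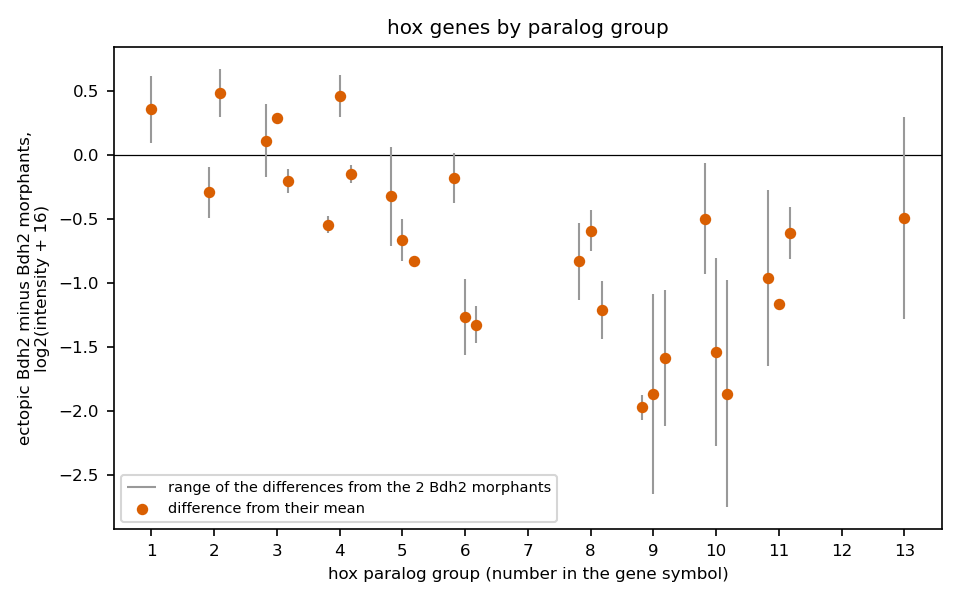
Difference of the array with ectopic Bdh2 from the Bdh2 morphants on the log2(intensity + 16) scale (y axis) for 28 hox genes, by paralog group (x axis); points are differences from the mean of both Bdh2 morphants and lines span the differences from each. Groups 1 to 4 scatter around 0, with hoxb2a at 0.48, and groups 9 to 13 lie below 0, with hoxb9a at -1.97.

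The posterior hox genes also differed between the Bdh2 morphant arrays: over groups 9 to 13 the median of replicate 2 minus replicate 1 was 1.22. The head patterning genes of the same list ran the other way. Besides otx2b, the midbrain and hindbrain boundary genes en1b, en2a, en2b and gbx2 lay above both Bdh2 morphant arrays, with differences between 0.99 and 1.43. These 4 genes were named after their values were seen. The notochord and tailbud gene tbxta read 33.4 with ectopic Bdh2, against 262 and 234 in the Bdh2 morphants and 294 and 155 in the controls, and it too was named after its values were seen.

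Genes of cartilage and bone lay mostly below the Bdh2 morphants. Of 19 tested genes of cartilage and bone, 14 lay below both Bdh2 morphant arrays, 7 by at least 2-fold, and 1 fell, col9a3, with a list median of -0.71 (-0.98 and -0.77). The main cartilage collagen gene col2a1a read 719 with ectopic Bdh2, against 9020 and 3318 in the Bdh2 morphants and 10055 and 5945 in the controls. The collagen gene col9a2 and the chondromodulin gene cnmd differed by -2.67 and -2.62, the second on a probe set that can match other transcripts. The 3 genes above both arrays were runx3, col10a1a and sox9b, at 0.83, 0.85 and 1.41, named after their values were seen.

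Skin genes lay slightly low. Of 39 tested, 24 lay below both Bdh2 morphant arrays, 3 by at least 2-fold, and 8 above, with a median of -0.38 (-0.40 and -0.32). The tight junction gene cldn1 read 659 with ectopic Bdh2, against 2159 and 4822 in the Bdh2 morphants and 2356 and 2915 in the controls. The basal keratin gene krt5 read 3958 with ectopic Bdh2, against 9565 and 8512 in the Bdh2 morphants and 11368 and 7362 in the controls. Of 35 genes of the extracellular matrix, 17 lay below both Bdh2 morphant arrays and 15 between, with a median of -0.25 (-0.53 and -0.21). The lysosomal protease genes ctsba and ctsla had differences of -1.98 and -1.53, and no gene of either list passed the test.

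In the list of pigment cells and purine synthesis, 10 of 14 genes lay below both Bdh2 morphant arrays, with a median of -0.62 (-0.31 and -0.79). The 4 largest differences were those of the purine pathway enzymes adsl, paics, ppat and gart, between -1.82 and -1.35. The paics probe set read 3051 with ectopic Bdh2, against 7630 and 9946 in the Bdh2 morphants and 6436 and 6726 in the controls. The pigment cell genes dct and mitfa lay between the Bdh2 morphant arrays, at -0.04 and -0.27, and were named after their values were seen.

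Erythroid genes lay mostly within the range of the Bdh2 morphants. Of 19 erythroid genes, 13 lay between the 2 arrays, with a median of 0.04 (-0.61 and 0.68 from Bdh2 morphants 1 and 2). The median difference between the Bdh2 morphant arrays themselves, replicate 2 minus replicate 1, was -1.29 for this list. The carbonic anhydrase gene cahz read 2649 with ectopic Bdh2, against 3415 and 742 in the Bdh2 morphants and 5136 and 1301 in the controls. The gene tmod4 read 391 with ectopic Bdh2, against 1732 and 1829 in the Bdh2 morphants and 2777 and 2305 in the controls, and it stands in the thin filament list too. The erythroid median was -0.16 after centring and -0.09 after quantile normalisation.

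Of 4 tested globin genes, hbae3 and hbbe3 lay below both Bdh2 morphant arrays and hbbe2 and hbaa1 between them. The embryonic alpha globin gene hbae3 read 25464 with ectopic Bdh2, against 40785 and 29022 in the Bdh2 morphants and 39125 and 26341 in the controls. The list median was -0.38, at -1.03 from Bdh2 morphant 1 and 0.16 from Bdh2 morphant 2, so its sign depends on which array is used. Of 16 genes of heme synthesis, 4 lay above both arrays, 6 below and 6 between, with a median of -0.13 (-0.42 and 0.078). The heme enzyme gene urod read 756 with ectopic Bdh2, against 1217 and 2152 in the Bdh2 morphants and 1450 and 2086 in the controls, and glrx5, a factor of iron-sulfur cluster supply, differed by -0.80. The protease subunit gene clpxa differed by 0.80, on a probe set that can match other transcripts.

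Of 12 genes of iron transport and storage, 7 lay below both Bdh2 morphant arrays, 2 by at least 2-fold, with a median of -0.39 (-0.53 and -0.31). The largest difference was that of transferrin, tfa, which is also a liver plasma protein. It read 751 with ectopic Bdh2, against 3085 and 9443 in the Bdh2 morphants and 5990 and 5305 in the controls. The copper ferroxidase gene cp, another liver product, read 144 with ectopic Bdh2, against 405 and 341 in the Bdh2 morphants and 256 and 509 in the controls. The ferritin-like gene fthl30 differed by -0.52, on a probe set that can match other transcripts. No gene of blood, heme or iron passed the test.

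Myeloid and endothelial genes had no common direction. Of 23 myeloid and immune genes, 6 lay above both Bdh2 morphant arrays, 5 below and 12 between, with a median of 0.28 (-0.42 and 0.66 from Bdh2 morphants 1 and 2). The apolipoprotein gene apoeb, which microglia and the yolk share, differed by -2.50. The chemokine receptor gene cxcr4b read 491 with ectopic Bdh2, against 202 and 89.0 in the Bdh2 morphants and 252 and 98.7 in the controls. Of 10 endothelial genes, 4 lay above both arrays, 2 below and 4 between. The vascular receptor gene kdrl read 364 with ectopic Bdh2, against 324 and 156 in the Bdh2 morphants and 241 and 301 in the controls.

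Ribosomal protein genes showed a small but very even offset. Of 74 tested, 71 lay below both Bdh2 morphant arrays and 0 above, none by 2-fold, with a median of -0.58 (-0.55 and -0.62 from Bdh2 morphants 1 and 2). The rpl19 probe set read 22970 with ectopic Bdh2, against 40107 and 38595 in the Bdh2 morphants and 33788 and 30298 in the controls. For rpl29 the values were 10745 with ectopic Bdh2, 17490 and 21811 in the Bdh2 morphants, and 20058 and 17250 in the controls. After quantile normalisation the list median was -0.04, so the offset depends on the scaling, whereas centring gave -0.79. None of the 74 passed the test.

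Genes of oxidative phosphorylation showed a similar offset, with 69 of 73 below both Bdh2 morphant arrays, 2 by at least 2-fold, and a median of -0.64 (-0.48 and -0.81 from Bdh2 morphants 1 and 2). This median was -0.48 after quantile normalisation. The 1 gene that fell was slc25a4, the ADP/ATP carrier of the inner membrane, at 372 with ectopic Bdh2, against 2017 and 2462 in the Bdh2 morphants and 5545 and 4764 in the controls. It fell by 2.53 (SE 0.36; limma adjusted p = 0.0423). The ATP synthase gene atp5mc3b read 9345 with ectopic Bdh2, against 19400 and 23115 in the Bdh2 morphants and 20639 and 19343 in the controls. The 2 genes above both arrays were ndufs8a and ndufa4b, at 0.33 and 0.47, named after their values were seen.

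Among glycolytic genes the muscle forms differed most. Of 36 genes of hypoxia and glycolysis, 7 lay above both Bdh2 morphant arrays, 15 below and 14 between, with a median of -0.05 (-0.27 and 0.073). The muscle forms aldoab and eno3 lay at -2.85 and -2.22, and aldoab and gapdh were the 2 that fell. The paralogs aldocb, a brain form, and gapdhs lay between the arrays at -0.02 and 0.28, and were named after their values were seen. Antioxidant genes were mostly low, with 19 of 28 below both Bdh2 morphant arrays and a median of -0.55 (-0.40 and -0.57). The glutathione peroxidase gene gpx4a read 788 with ectopic Bdh2, against 2528 and 13392 in the Bdh2 morphants and 4882 and 5908 in the controls, and no antioxidant gene passed the test.

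Transcripts of cell division differed little from the Bdh2 morphants. Of 72 genes that act in replication or mitosis, 26 lay above both Bdh2 morphant arrays, 16 below and 30 between, with a median of 0.15 (0.040 and 0.24) that was -0.06 after centring. Against the controls, 47 lay above both and 4 below both, with a median of 0.33. Over all 6327 tested genes, 2677 lay above both controls and 1969 below both, with a median of 0.09. The thymidine kinase gene tk1 stood apart, at 773 with ectopic Bdh2, against 159 and 217 in the Bdh2 morphants and 257 and 282 in the controls. Of 61 genes of the nucleolus, 36 lay below both arrays and 9 above, with a median of -0.26 (-0.29 and -0.13). The nucleolar gene npm1b read 1151 with ectopic Bdh2, against 293 and 37.4 in the Bdh2 morphants and 735 and 264 in the controls, the largest difference of its list at 3.18. The value of Bdh2 morphant 2 lies under the filter intensity, so this size depends on the added constant. No gene of these 2 lists passed the test.

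Summed markers of cell types placed the same differences side by side. The 6 skeletal muscle markers summed to 27316 with ectopic Bdh2, against 154476 and 132236 in the Bdh2 morphants and 176382 and 155781 in the controls, and all 6 were lowest in the single array. The 5 liver markers summed to 7667 with ectopic Bdh2, against 29725 and 44671 in the Bdh2 morphants and 38690 and 34730 in the controls. Of these, fabp10a, a defining gene of hepatocytes, read 10.1 with ectopic Bdh2, 4.88 and 16.7 in the Bdh2 morphants, and 56.3 and 78.0 in the controls, under the filter intensity on all arrays. The 4 neuron markers summed to 11344 with ectopic Bdh2, against 8384 and 4198 in the Bdh2 morphants and 8573 and 7205 in the controls.

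The 2 cartilage markers on the array summed to 742 with ectopic Bdh2, against 9032 and 3367 in the Bdh2 morphants and 10100 and 6679 in the controls, most of it from col2a1a. The 4 erythroid markers summed to 30130 with ectopic Bdh2, against 47553 and 30316 in the Bdh2 morphants and 49947 and 28479 in the controls. This sum lay next to the replicate 2 arrays, but most of it came from hbae3, at 25464 with ectopic Bdh2. The other erythroid markers, alas2, gata1a and cahz, lay between the Bdh2 morphant arrays. The 3 epidermal markers summed to 37802 with ectopic Bdh2, against 57545 and 51918 in the Bdh2 morphants and 64179 and 43081 in the controls. The 3 photoreceptor markers summed to 1219 with ectopic Bdh2, against 107 and 151 in the Bdh2 morphants and 1189 and 624 in the controls, and crx alone made up most of the high sums. The share of such cells or tissues in each sample was not tested. The labels give the same stage for all arrays, and whether the embryos of the single array matched the others in stage or in the tissue sampled was not tested, which bears on all the differences above.

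**Figure D5:**
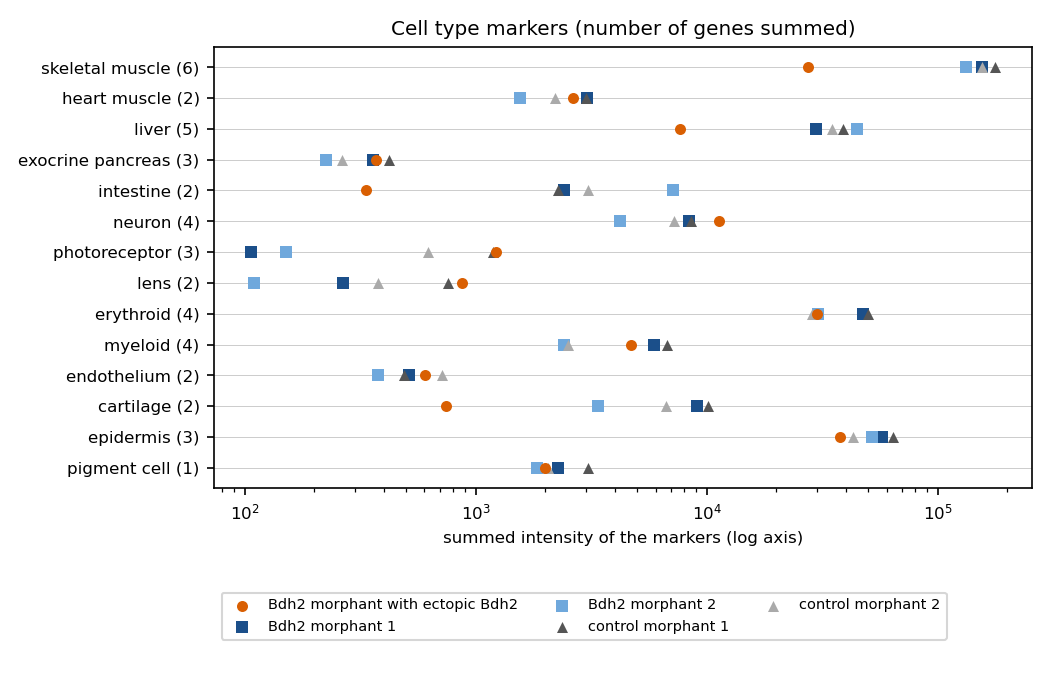
Summed intensity on a log axis of marker genes for 14 cell types, with the number of genes summed in brackets and 1 point per array. The array with ectopic Bdh2 lies left of all others for skeletal muscle at 27316, liver at 7667, intestine at 334, cartilage at 742 and epidermis at 37802, right of all others for neurons at 11344, lens at 873 and photoreceptors at 1219, and within the range of the others for the remaining types. The lens sum with ectopic Bdh2 was mostly cryaa at 577, while crygm2c read 296 there, against 481 and 291 in the controls. Nearly all of the intestine sum with ectopic Bdh2 came from fabp2, at 332.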

How the data were processed

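Each sample of embryo RNA was run on its own Affymetrix zebrafish array. What the authors deposited is a linear intensity per probe set. Per the submitters' processing notes, Affymetrix Expression Console was used, and the sources used here do not give its version, algorithm or scaling. No counts or depth exist, and the number of arrays limits the precision. Of 15617 probe sets, 115 Affymetrix controls were left out, and 9301 with a mean over 5 arrays above the 40th percentile were tested. In gcga, cryaa, rlbp1a and six6a, for example, the mean of the other arrays lies under this limit. Per the array annotation, 10802 probe sets carried 1 gene symbol, 135 several and 4680 none; 10718 matched a gene identifier of the reference table.

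Intensities were converted to log2(intensity + 16). A gap is the distance of the single array to the nearer Bdh2 morphant array. The test was limma 3.58.1 in R 4.3.3, with a mean per group over 5 arrays, an intensity trend, 2 residual and 4.89 prior degrees of freedom, two-sided p-values adjusted by Benjamini and Hochberg over 9301 probe sets, and a threshold of 0.05. The script was tested on simulated data. Lists were described by counts and medians, with no test.

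Named genes were bdh2, crx and vsx1, the 14 with the highest and the 14 with the lowest gap, and up to 4 members per list by absolute difference; others are marked where they appear. Of 169 named genes, 16 had over 1 tested probe set, all in 1 direction. The genes, lists and rule were chosen with earlier results of these data known. Replicate numbers come from the titles, and no label says that they mark a batch or pair samples. Alternatives covered scaling, the added constant, the filter, the moderation, the arrays in the fit, the replicate number and the size of the gap. No sequences are shown.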

Additional observations from a re-analysis of the deposited data

How the results depend on the processing

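With all arrays 2 probe sets rose and 47 fell (limma, adjusted p under 0.05). Higher calls were 0 without the filter, 1 with the filter at the 60th percentile, 0 without the intensity trend, 68 with 3 arrays, 43 with the replicate block and 475 with the single array in block 2, an alternative chosen after seeing the data. Lower calls were 17 without the filter, 0 without the trend, 154 with 3 arrays, 108 with the replicate block and 348 with the single array in block 2. Leaving out 1 array gave 0 to 69 higher and 0 to 153 lower calls, with 0 in both directions without Bdh2 morphant 2. Unadjusted p under 0.05 was met by 1062 probe sets without the trend and 703 without Bdh2 morphant 2. Of the 49 calls, all were kept by both scalings and both blocks, 17 without the filter, 27 without Bdh2 morphant 1 and 0 without Bdh2 morphant 2. Gaps of at least 2-fold above numbered 440 as reported, 287 centred, 727 without the filter, 258 with the 60th percentile, 105 outside all 4 other arrays (chosen after seeing the data), 3976 with any gap, 35 at 4-fold, and 655 to 1486 with 1 Bdh2 morphant array left out. Below they numbered 328, then 257 outside all 4 other arrays, 2779 with any gap, 93 at 4-fold, and 507 to 874 with 1 array left out. List medians moved to -3.04 (centred) and -2.60 (quantile) for myosins, to -2.48 (centred), -2.15 (constant 64), -2.20 (replicate block) and -2.28 to -2.16 (1 array left out) for thin filament, to -0.79 and -0.037 (centred, quantile) for ribosomal proteins, to 1.00 and 2.25 (the 2 blocks) for lens, to 2.16 (block 2) and 1.59 to 2.103 (1 array left out) for retina regulators, and to 1.45 (block 2) and 0.87 to 1.25 (1 array left out) for proneural genes. Signs reversed for heart (-0.29 with the replicate block, -0.46 to 0.62 with 1 array left out), globins (0.19 in block 2, -1.03 to 0.16 with 1 array left out), heme synthesis (0.24 in block 2) and myeloid genes (-0.27 with the block, -0.42 to 0.66 with 1 array left out). The cause was not tested. The numbers shared by the groups are not stated to pair samples, and 1 array without a partner bounds what any setting can show.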

Other observations

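Stress genes outside the main groups had mixed places on the array with ectopic Bdh2. Of 39 immediate-early genes, which respond to stimulation within minutes, 28 lay above both Bdh2 morphant arrays and 3 below, with a median of 0.67 (0.65 and 0.79 from Bdh2 morphants 1 and 2). The transcription factor gene fosab read 985 with ectopic Bdh2, against 242 and 38.9 in the Bdh2 morphants and 206 and 261 in the controls. The Krüppel-like factor gene klf11a read 1846 with ectopic Bdh2, against 425 and 329 in the Bdh2 morphants and 945 and 911 in the controls, and gadd45ba, a stress gene, differed by 2.07. Of 36 genes of endoplasmic reticulum and amino acid stress, 21 lay above both arrays and 6 below, with a median of 0.30 (0.24 and 0.45). The proline synthesis gene aldh18a1 read 1132 with ectopic Bdh2, against 78.8 and 334 in the Bdh2 morphants and 575 and 595 in the controls. Of 37 heat shock and chaperone genes, 11 lay above both arrays and 15 below. The inducible gene hsp70.3 read 688 with ectopic Bdh2, against 309 and 77.9 in the Bdh2 morphants and 1404 and 1306 in the controls, on a probe set that can match other transcripts, whereas hspb8, a small heat shock gene, differed by -2.02. No gene of these lists passed the pooled test.

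Lists of splicing, protein turnover and cell death had mixed directions too. Of 67 splicing genes, 35 lay above both Bdh2 morphant arrays and 17 below, with a median of 0.19 (0.149 and 0.146) that was -0.01 after centring. The splicing factor gene srsf6b read 4879 with ectopic Bdh2, against 2828 and 981 in the Bdh2 morphants and 2987 and 2192 in the controls. Of 40 proteasome genes 26 lay between the arrays, with a median of -0.07 (0.19 and -0.41), and of 26 autophagy genes 10 lay above both and 10 below, with a median of 0.11 (-0.017 and 0.061). The autophagy kinase gene ulk1b read 373 with ectopic Bdh2, against 144 and 71.7 in the Bdh2 morphants and 179 and 122 in the controls. Of 25 genes of the p53 response and apoptosis, 5 lay above both arrays and 6 below. Its member ddb2, a DNA damage sensor, read 65.2 with ectopic Bdh2, against 227 and 234 in the Bdh2 morphants and 94.8 and 377 in the controls. The heat shock, proteasome, splicing and autophagy medians take the other sign under 1 of the 2 scalings.

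Probe sets without a single gene symbol numbered 2077 among those tested. Of these, 1049 lay above both Bdh2 morphant arrays and 478 below, 136 and 67 by at least 2-fold, and 4 fell past the test. Their median difference was 0.27.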
